A study of Mus musculus with 21 samples.

Results

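Genes near which human variants carry risk of late-onset Alzheimer disease, and which microglia express, were followed in RNA sequencing of primary mouse brain microglia. The 10 genes were Bin1, Picalm, Cd33, Inpp5d, Abi3, Plcg2, Abca7, Ms4a6d, Cd2ap and Sorl1. They were taken by gene symbol from 2 deposited tables, each of which listed 54532 symbols, and all 10 were found in both. The rule that takes them is the symbol and not a measured value, but the symbols were chosen with earlier results of these data known. All 10 passed the filter on low values in both tables, a mean normalized count of at least 10. A normalized count is the number of reads assigned to a gene, divided by a factor that evens out library depth.

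The aging table held 12 libraries of 4 groups. Its groups were young wild type mice, young Trem1-/- mice, aged wild type mice and aged Trem1-/- mice. The 5XFAD table held 9 libraries of 3 groups from adult mice, which were wild type, 5XFAD, and 5XFAD with the genotype Trem1+/-. Each group had 3 libraries. 5XFAD is a transgenic line that expresses human amyloid precursor protein and presenilin genes with familial Alzheimer mutations in neurons, and it develops amyloid plaques. TREM1 is a receptor of myeloid cells that amplifies inflammatory signals. The labels gave the ages only as young, aged and adult, did not state the strain, sex or which part of Trem1 was deleted, and did not name the animal behind each library. The p-values therefore measure only the spread between these samples, which may be technical.

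The products of these genes fall into 3 sets. CD33, the phosphatase SHIP1 from Inpp5d, phospholipase C gamma 2 from Plcg2, the membrane protein from Ms4a6d and the actin regulator from Abi3 work at or just below the microglial surface, where activating and inhibitory receptors set phagocytosis and inflammatory output. BIN1, PICALM, CD2AP and the sorting receptor from Sorl1 act in endocytosis and in the traffic between endosomes, the Golgi and lysosomes. ABCA7 moves lipids across membranes and takes part in phagocytosis.

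Recovered read totals ran from 8600878 to 19411434 a library in the aging table and from 9264999 to 18698707 in the 5XFAD table. The gene named in the labels did not follow them. Trem1 was at 25.2, 7.65 and 8.74 normalized counts in the young wild type libraries and at 89.4, 99.8 and 89.5 in the young libraries labelled Trem1-/-. It was higher in the latter by 2.85 ± 0.45 on the log2 scale (SE of the fit), with an adjusted p of 6.2e-04. The aged wild type libraries held 269, 188 and 237, and the aged libraries labelled Trem1-/- held 124, 124 and 244. Every direction below that involves genotype therefore refers to the labels. A list of 12 microglial markers was present in full in every library, and markers of monocytes and neutrophils differed between groups, as given beside the results they accompany. In such bulk RNA, fewer cells of a type and less RNA per cell cannot be told apart.

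RefSeq promoter windows (GRCm38.p6) were matched by symbol for 7 of the 10 genes, which were Picalm, Cd33, Inpp5d, Plcg2, Abca7, Cd2ap and Sorl1. The 250 bases before 3 of these starts are printed 5′ to 3′ on the strand of the gene. Sorl1 is shown because its RNA changed most among the 10 genes, with both of its starts, and Inpp5d because it had the highest level per kb of exon. Capitals mark a match to 1 of 4 motifs that were searched on both strands.
Sorl1, chr9:42124298-42124547, minus strand: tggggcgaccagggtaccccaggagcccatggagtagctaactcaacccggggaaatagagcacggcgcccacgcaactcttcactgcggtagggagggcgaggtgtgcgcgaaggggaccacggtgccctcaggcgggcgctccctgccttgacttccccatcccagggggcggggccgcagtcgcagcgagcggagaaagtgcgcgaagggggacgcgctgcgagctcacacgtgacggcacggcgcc
Sorl1, second start, chr9:42077214-42077463, minus strand: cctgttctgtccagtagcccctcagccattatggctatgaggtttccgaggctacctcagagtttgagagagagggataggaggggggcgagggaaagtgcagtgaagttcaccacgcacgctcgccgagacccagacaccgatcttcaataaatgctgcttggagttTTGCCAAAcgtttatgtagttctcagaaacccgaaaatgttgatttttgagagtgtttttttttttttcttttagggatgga
Inpp5d, chr1:87620062-87620311, plus strand: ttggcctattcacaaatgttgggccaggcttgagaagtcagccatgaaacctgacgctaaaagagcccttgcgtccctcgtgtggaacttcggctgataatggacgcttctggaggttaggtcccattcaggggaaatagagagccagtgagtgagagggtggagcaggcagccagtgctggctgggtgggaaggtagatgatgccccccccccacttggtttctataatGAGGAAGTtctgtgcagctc
The motifs were GAGGAAGT for PU.1, TTGCNNAA for C/EBP, where N is any base, the interferon response element ISRE and the lysosomal CLEAR element. They were searched in the full window of 300 bases, of which 50 lie after the start and are not printed. The first Sorl1 window, at 72.3% GC, held none of the 4. The second Sorl1 window, at 44.0% GC, held the C/EBP letters from 82 bases before the start, which 10.797% of the 32851 windows of all genes also hold. The Inpp5d window held the PU.1 letters from 20 bases before the start, against 3.202% of all windows. The Picalm window held the CLEAR letters from 193 and from 3 bases before its start, against 0.326% of all windows. The windows of Cd33, Plcg2, Abca7 and Cd2ap held none. A match is a description of the letters only.

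The 10 genes differed widely in level. Levels between genes are compared here as normalized counts per kb of merged GENCODE M21 exon, as the mean and SD over libraries. Over the 12 aging libraries, Inpp5d stood at 2510 ± 215 per kb and Bin1 at 2225 ± 222 per kb. Plcg2 followed at 1655 ± 149 per kb, Cd33 at 1122 ± 121 per kb, Picalm at 1042 ± 147 per kb and Abi3 at 897 ± 163 per kb. Below these were Sorl1 at 519 ± 227 per kb, Ms4a6d at 357 ± 105 per kb, Cd2ap at 194 ± 15.4 per kb and Abca7 at 174 ± 23.4 per kb. Of the neighbours in this order, the ranges over libraries were apart for Bin1 over Plcg2, Plcg2 over Cd33 and Ms4a6d over Cd2ap, and the other neighbours overlapped. The order over the 9 libraries of the 5XFAD table was the same, except that Ms4a6d at 338 ± 87.1 per kb lay above Sorl1 at 254 ± 97.4 per kb. The signalling genes Inpp5d and Plcg2 and the membrane remodeller Bin1 were thus the highest per kb of merged exon in both tables. This order rests on the merged length of all annotated exons, 15732 bases for Picalm and 4117 for Bin1. That length need not match the transcripts expressed. Before division by length, Picalm held 13286 to 20318 normalized counts over the aging libraries and Bin1 7910 to 10547.

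**Figure D1:**
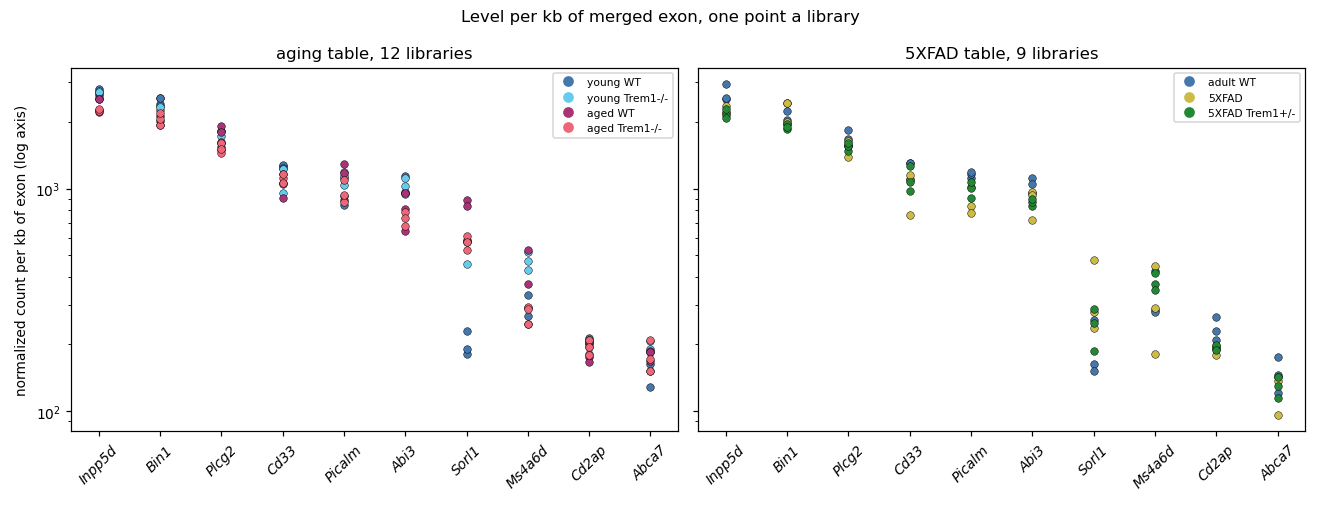
Level of each gene in normalized counts per kb of merged exon (log axis), with 1 point a library coloured by group, for the aging table (left, 12 libraries) and the 5XFAD table (right, 9 libraries). Inpp5d and Bin1 lie at the top with overlapping ranges, and Inpp5d is above Bin1 in 12 of 12 libraries on the left and 8 of 9 on the right. Abca7 and Cd2ap lie at the bottom, and the points of Sorl1 spread most in both tables.

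In microglia of aged against young wild type mice, which asks how age alters these genes, Sorl1 rose and Bin1 fell, and the other 8 genes did not pass the test. That is 1 higher and 1 lower of 10, where 8.67% of the 16086 genes tested were called, 6.43% higher and 2.24% lower. The 3 aged libraries lay wholly outside the 3 young ones for 7 of the 10 genes, against 26.2% of all genes tested. Of these 7, Sorl1, Plcg2 and Abca7 were higher (15.1% of all genes), and Bin1, Inpp5d, Cd33 and Abi3 were lower (11.2%). Scaled to the 12 microglial markers instead, a setting chosen after seeing the data, these 4 lower values turned to 0.08, 0.22, 0.11 and 0.04. That scaling shifts all genes by about the same amount, and the median of all genes then stood at 0.38, above these 4 values. In the young libraries labelled Trem1-/- against young wild type, Sorl1 alone of the 10 passed the test and was higher, where 2.58% of all genes were called and 2.36% were called higher. The groups were apart for 6 of the 10, against 20.4% of all genes. They were higher for 4 (11.3% of all genes) and lower for 2 (9.05%). Both comparisons use the same young wild type libraries.

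In the aged libraries labelled Trem1-/- against aged wild type, 0 of the 10 genes and 0 of all genes tested passed the limma test (0% called). At an unadjusted p under 0.05 the counts were 2 of the 10 (Sorl1 and Plcg2) and 1545 of all genes, edgeR called 0 of all genes, and DESeq2 called 23, none of them among the 10. The groups were apart for 1 of the 10, Plcg2, which was lower, against 12.2% of all genes and 6.25% lower. In aged against young libraries labelled Trem1-/-, Abi3 fell and the other 9 did not pass, where 1.71% of all genes were called and 0.634% were called lower. The groups were apart for 5 of the 10, all lower, against 21.2% of all genes and 9.87% lower. Of these 5, Bin1, Inpp5d and Plcg2 turned above 0 under microglial marker scaling, at 0.14, 0.08 and 0.08. The median of all genes was then at 0.32. The authors' own statistics compare young wild type with aged Trem1-/-. Tested here with limma, that pair had Sorl1 higher and Abi3, Inpp5d and Bin1 lower in the aged libraries. That is 4 of 10 called against 6.67% of all genes, 4.65% higher and 2.02% lower. The authors' deposited values, with the sign turned, were 1.518 for Sorl1 (adjusted p 1.05e-20) and -0.472 for Abi3 (adjusted p 0.0123). They were -0.263 for Inpp5d (adjusted p 0.0162) and -0.285 for Bin1 (adjusted p 0.0106). The lowest deposited adjusted p among the remaining members was 0.308, for Abca7. The groups were apart for 5 of the 10 against 23.1% of all genes, 1 higher (12.9%) and 4 lower (10.2%). The test of whether the age difference itself differed between the labelled genotypes called Sorl1 and Ms4a6d, both lower, 2 of 10 against 2.54% of all genes and 2.14% lower.

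**Figure D2:**
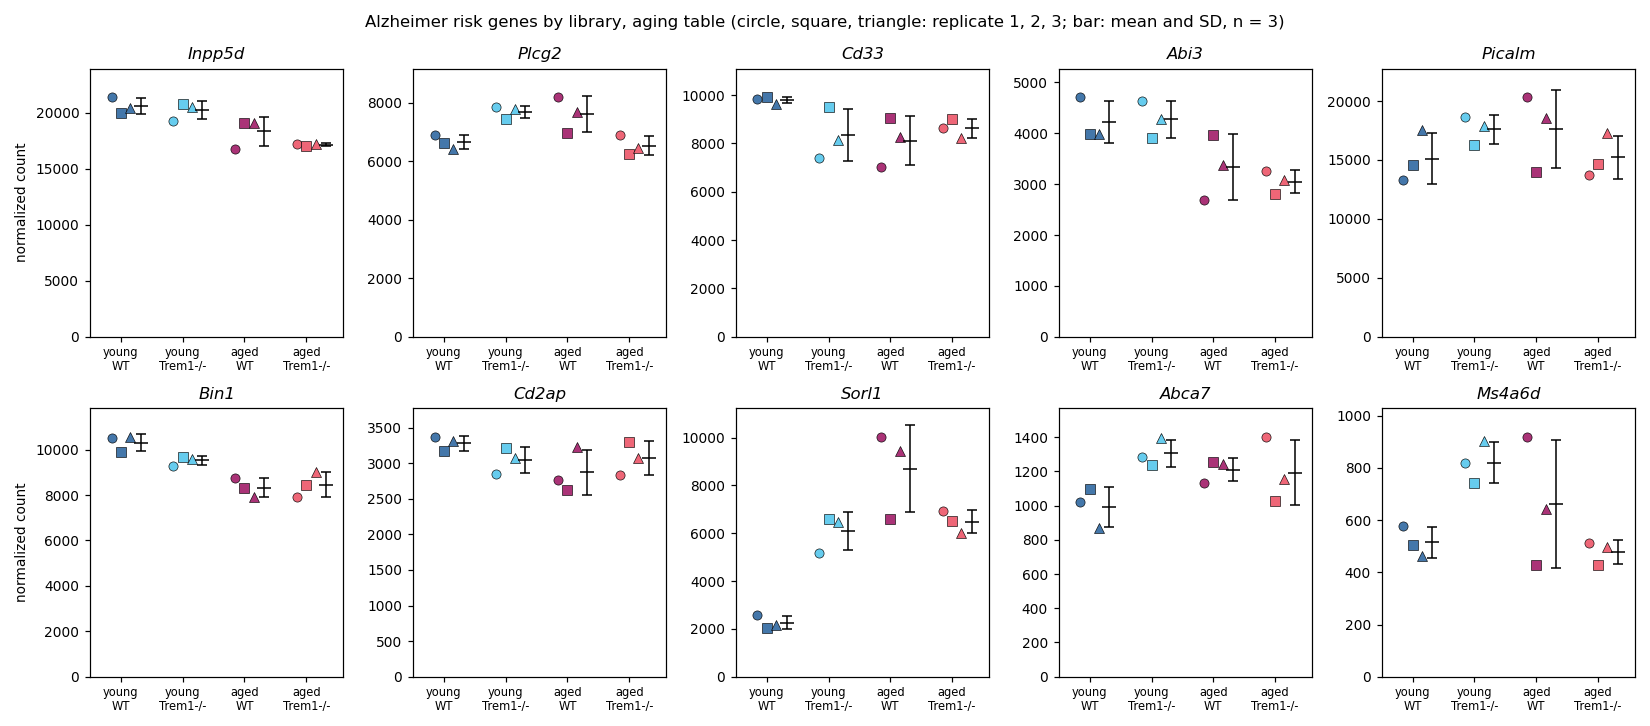
Normalized counts of the 10 genes in the 12 aging libraries, 1 panel a gene from 0 upwards, with symbols for replicates and the group mean with SD (n = 3) beside them. Sorl1 lies between 2041 and 2590 in young wild type and at 5174 or more in every other library. The ratio of its highest to its lowest group mean is 3.84, and for the other 9 genes it is 1.14 (Cd2ap) to 1.72 (Ms4a6d). Some of these 9 also have groups that lie apart, as given in the text.

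Sorl1 encodes a receptor of the sortilin family that carries cargo, including the amyloid precursor protein, from endosomes back to the Golgi. The gene lies at chr9:41964720-42124297 on the minus strand (GRCm38). Its normalized counts were 2590, 2041 and 2158 in young wild type and 10014, 6613 and 9457 in aged wild type. No aged library came within the young range. The aged libraries were higher by 1.93 ± 0.14 (log2, SE), a fold of 3.80, with an adjusted p of 1.0e-07, and this was the second smallest p of all genes tested. The young libraries labelled Trem1-/- held 5174, 6604 and 6477, again all above young wild type. They were higher by 1.43 ± 0.14 with an adjusted p of 7.8e-06. The aged libraries labelled Trem1-/- held 6945, 6493 and 6005, within the range of their young counterparts apart from the highest and below 2 of the 3 aged wild type libraries. They differed from young libraries of the same label by 0.10 ± 0.14 (95% interval -0.19 to 0.39, adjusted p 0.803). They differed from aged wild type by -0.40 ± 0.14 (95% interval -0.69 to -0.11, adjusted p 0.39).

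The age difference of Sorl1 was therefore smaller in libraries labelled Trem1-/- than in wild type, by -1.83 ± 0.20 on the log2 scale (95% interval -2.24 to -1.42, adjusted p 5.7e-05). Leaving out each library in turn gave -2.02 to -1.72. Under limma without its trend and robust options the adjusted p of this difference was 0.061, and over all other settings it ran upwards from 3.1e-15. The 3 calls of Sorl1 against young wild type held in every setting and with every library left out. The exons of Sorl1 share 1.63% of their bases with Gm16214 on the opposite strand, whose highest group mean was 16.7 normalized counts.

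Genes that mark blood monocytes were, like Sorl1, lowest in young wild type. The summed normalized count of 11 monocyte markers was 6054, 3709 and 3334 in young wild type and 37213, 20606 and 34992 in aged wild type. It was 16080, 29858 and 38321 in the young and 23991, 19129 and 21337 in the aged libraries labelled Trem1-/-. In aged wild type and in the young libraries labelled Trem1-/-, the library with the least Sorl1 was also the one with the lowest monocyte sum. In young wild type and in the aged libraries labelled Trem1-/- it was not. The summed neutrophil markers were at 17460 to 26196 in young and 82789 to 149649 in aged wild type. Under the Trem1-/- label they were at 38623 to 77705 in young and 68892 to 159362 in aged libraries, between which Sorl1 differed by 0.10. In aged against young wild type 10 of the 11 monocyte markers and 13 of 14 neutrophil markers rose, and 9 of 12 microglial markers fell. Of 6 choroid plexus markers 1 passed the test, Folr1, and all 6 were apart and higher, with summed counts of 10232 to 25322 in young and 45922 to 80794 in aged wild type. Their sums were 4268 to 26729 in the young and 54711 to 67326 in the aged libraries labelled Trem1-/-, and the sums of the 2 young groups overlapped. In the young libraries labelled Trem1-/- against young wild type 6 of 11 monocyte and 4 of 14 neutrophil markers rose. No monocyte marker was at 0 in any aging library, and of the neutrophil markers Elane was at 0 in 2 young wild type libraries and Mpo in 1 of them. The part of these markers in the Sorl1 result was not tested.

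**Figure D3:**
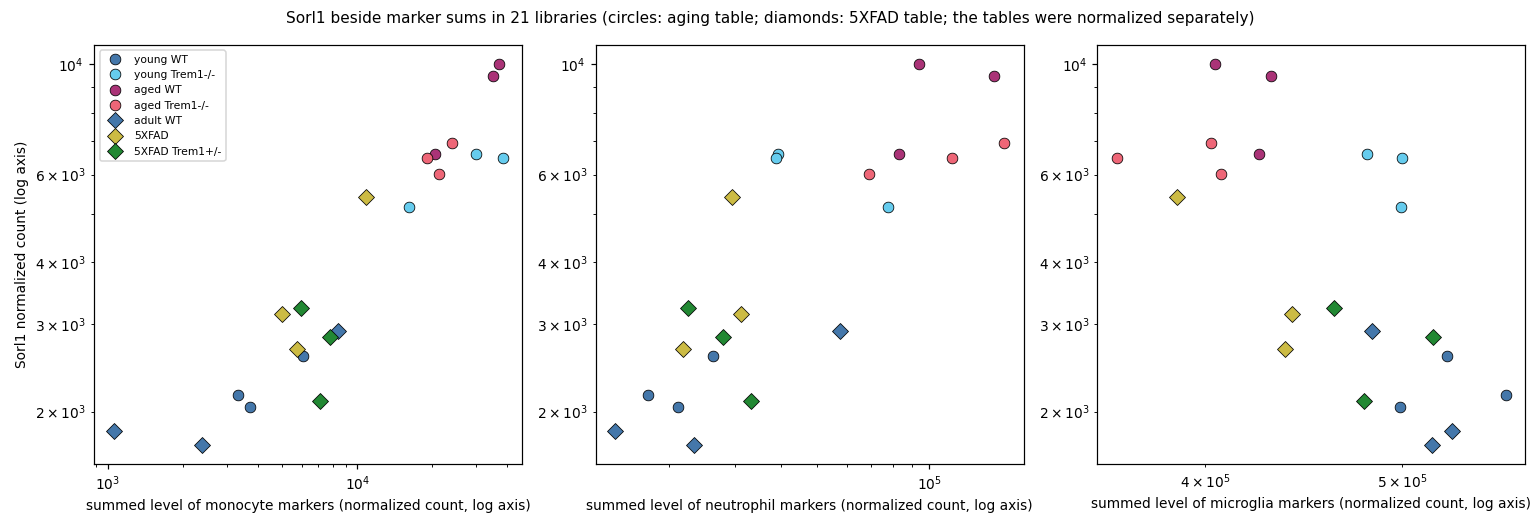
Sorl1 normalized counts (log axis) against the summed normalized counts of monocyte, neutrophil and microglial markers (log axes) in the 21 libraries, circles for the aging table and diamonds for the 5XFAD table. The young wild type libraries lie at the lower left of the monocyte panel and the other aging libraries at the upper right, while in the microglial panel the aged libraries lie at lower sums than young wild type and the young libraries labelled Trem1-/- overlap its lower end.

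The genes whose log2 levels were most like those of Sorl1, by the mean of Pearson's r over the 12 aging and over the 9 libraries of the 5XFAD table among 15656 genes, were Pstpip1 (0.949), Pirb (0.937) and F13a1 (0.928). Pirb encodes an inhibitory receptor of myeloid cells, and F13a1 is itself among the monocyte markers. For Ms4a6d the most alike gene was Fcgr1, an Fc receptor of macrophages and monocytes, at a mean r of 0.906. For Inpp5d it was Hook3, a microtubule linker protein, at 0.914. For the other members the highest mean r ran from 0.838 (Abi3 with BC035044) to 0.878 (Picalm with Slc13a3). These libraries share their groups, so the values are descriptions.

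Of the other trafficking genes, Bin1 encodes a membrane-curving protein of endocytosis and is the gene nearest one of the strongest common risk signals. It was at 10497, 9886 and 10547 normalized counts in young wild type and at 8735, 8319 and 7935 in aged wild type. The groups did not overlap. Bin1 fell by 0.31 ± 0.09 on the log2 scale in aged wild type (adjusted p 0.0231). The call was lost when replicate 1 or 3 of young wild type, or replicate 3 of aged wild type, was left out, with values of -0.34 to -0.27 and adjusted p of 0.0192 to 0.113 over the libraries left out. It was also lost by limma without its trend and robust options and in a fit of these 2 groups alone. The microglial marker sum fell in the same direction, from 499151 to 562530 in young to 404285 to 430858 in aged wild type. When libraries were scaled to those 12 markers, the difference of Bin1 was 0.08 in the other direction. That scaling shifts all genes about alike, and Bin1 stayed below their shifted median of 0.38. Bin1 was at 9299, 9687 and 9609 in the young and 7910, 8456 and 9025 in the aged libraries labelled Trem1-/-, a difference of -0.17 ± 0.09 (adjusted p 0.337). Against young wild type the aged libraries labelled Trem1-/- were lower by -0.29 ± 0.09 (adjusted p 0.0426). That call was lost with 5 of the 6 libraries left out. It was also lost by edgeR (adjusted p 0.0523) and by limma without its trend and robust options (adjusted p 0.198). The difference turned to 0.16 under microglial marker scaling, beside a median of 0.45 over all genes there.

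Picalm, whose product recruits clathrin to the membrane, and Cd2ap, which links endocytosis to actin, passed the test in none of the comparisons of the aging table. Picalm was at 13286, 14539 and 17530 in young wild type and 20318, 13951 and 18561 in aged wild type, which overlap (0.21 ± 0.13, adjusted p 0.387). Aged wild type replicate 2 was the lowest of its group for Picalm. Without it Picalm was 0.37 higher and passed the test, and Cd33 and Abi3 then passed as well, so that the count of called genes rose from 2 to 5. Cd2ap ranged from 2629 to 3367 over all 12 libraries, and its age difference in wild type was -0.20 ± 0.11 (adjusted p 0.299).

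A list of other coat, fission and retromer genes gave 3 higher and 0 lower of 28 tested in aged against young wild type, with a median log2 difference of 0.07 beside -0.01 over all genes. The 3 were Hip1, a clathrin adaptor (1.86), Ap2a2, a subunit of the AP-2 complex (0.48), and Snap91, a clathrin assembly protein related to Picalm (1.85). In the young libraries labelled Trem1-/- against young wild type, 2 of 28 were higher, Hip1 by 1.60 and Ap2a2 by 0.42. In aged against young libraries labelled Trem1-/-, Clta, a clathrin light chain, was the single gene called and fell by 0.58. Both tested relatives of Sorl1 in the sortilin family, of 4 listed, did not pass in either age comparison. These lists, like the 10 genes, were chosen with earlier results of these data known.

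Inpp5d encodes SHIP1, a lipid phosphatase that dampens signals from ITAM-coupled receptors, and lies at chr1:87620312-87720507 on the plus strand. It was at 21397, 20005 and 20402 in young wild type and at 16816, 19113 and 19119 in aged wild type. All aged values were below all young ones, but the difference of -0.17 ± 0.08 did not pass (adjusted p 0.202). The libraries labelled Trem1-/- held 19306, 20816 and 20551 when young and 17196, 17034 and 17259 when aged, again without overlap (-0.24 ± 0.08, adjusted p 0.125). Against young wild type the aged libraries labelled Trem1-/- were lower by -0.26 ± 0.08 (adjusted p 0.0423). That call was lost with each single library of those groups left out, by TMM scaling, by limma without its trend and robust options and by edgeR. The direction turned under microglial marker scaling (0.18), where the median of all genes was 0.45.

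Cd33 encodes an inhibitory sialic acid receptor, and Plcg2 the lipase that acts downstream of TREM2 and other ITAM-coupled receptors. Cd33 was at 9819, 9906 and 9647 in young wild type, at 7017, 9048 and 8266 in aged wild type and at 7388, 9512 and 8140 in the young libraries labelled Trem1-/-. The young wild type values were close together and above all others of these groups. The differences of -0.28 ± 0.10 with age (adjusted p 0.0976) and -0.24 ± 0.10 with the label in young mice (adjusted p 0.324) did not pass. Plcg2 was at 6897, 6618 and 6429 in young wild type and 8178, 6962 and 7677 in aged wild type. It was at 7830, 7426 and 7767 in the young and 6894, 6230 and 6462 in the aged libraries labelled Trem1-/-. Its values were thus above young wild type in aged wild type and in the young libraries of the other label, and back within reach of it in the aged ones. The age difference was 0.19 ± 0.09 in wild type (adjusted p 0.209) and -0.23 ± 0.09 under the other label (adjusted p 0.196). The difference between these 2 age differences was -0.43 ± 0.13 and did not pass (adjusted p 0.0746).

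Among 24 other genes of ITAM and ITIM signalling, 3 were higher and 2 lower in aged against young wild type, with a median log2 difference of 0.06. The kinase gene Fgr, which is active in monocytes and neutrophils, was higher by 2.11 and the phosphatase gene Ptpn11 by 0.51. Plcg1, the close relative of Plcg2, was lower by -0.50 and the exchange factor gene Vav2 by -0.32. In the young libraries labelled Trem1-/- against young wild type, Fgr was the 1 gene called of 24 and was 1.69 higher. Of 7 tested genes of the Siglec family, to which Cd33 belongs, Siglech, a marker of microglia, was lower in aged wild type and the other 6 did not pass.

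Ms4a6d encodes a tetraspan membrane protein of a gene cluster linked to soluble TREM2 levels in humans, and lies at chr19:11586604-11604849 on the minus strand. It was at 578, 503 and 462 normalized counts in young wild type and at 818, 743 and 902 in the young libraries labelled Trem1-/-, without overlap. The difference of 0.68 ± 0.21 did not pass (adjusted p 0.0962). Aged wild type held 918, 428 and 643, a wide spread, and the aged libraries labelled Trem1-/- held 511, 427 and 498. All of the latter lay below their young counterparts, by -0.78 ± 0.21 (adjusted p 0.0551). The age difference was lower under the Trem1-/- label than in wild type by -1.08 ± 0.29 (95% interval -1.69 to -0.47, adjusted p 0.0481). This call was lost with 10 of the 12 libraries left out in turn, with adjusted p of 0.00251 to 0.153, and held without young wild type replicate 1 or aged wild type replicate 2. It was also lost with no filter, with a pseudocount of 0.5 and by limma without its trend and robust options.

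Whether reads of Ms4a6d are shared with related family members was not tested, so its values are uncertain. The paralogs Ms4a6b, Ms4a6c and Ms4a4a were measured beside it. Ms4a6b had a mean of 608 ± 94.6 in young and 512 ± 8.45 in aged wild type, and of 858 ± 107 in the young and 670 ± 188 in the aged libraries labelled Trem1-/- (SD, n = 3). It passed the test in no comparison. Ms4a6c had a mean of 161 ± 23.9 in young wild type, 529 ± 182 in the young libraries labelled Trem1-/-, 419 ± 136 in aged wild type and 286 ± 95.3 in the aged libraries labelled Trem1-/- (SD, n = 3). Ms4a6c and Ms4a4a rose in aged wild type, Ms4a6c by 1.34 and Ms4a4a by 3.04, and both rose in the young libraries labelled Trem1-/-, by 1.66 and 3.55. Both also had a lower age difference under that label, by -2.21 and -4.29. The remaining 5 of 7 tested family members did not pass in either of the first 2 comparisons. The monocyte sums given beside Sorl1 moved in the same groups, and their part in the Ms4a6d result was not tested.

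Abi3 encodes an adaptor of the WAVE complex, which drives branching of actin, and lies at chr11:95830074-95842476 on the minus strand. It was at 4707, 3984 and 3996 in young wild type and 2681, 3957 and 3374 in aged wild type (-0.36 ± 0.12, adjusted p 0.0796). The libraries labelled Trem1-/- held 4638, 3914 and 4283 when young and 3258, 2813 and 3076 when aged. These groups were apart, and Abi3 fell by 0.49 ± 0.12 (adjusted p 0.0444). The call was lost with each of the 6 libraries left out (adjusted p 0.0586 to 0.183), with edgeR, and by limma without its trend and robust options (adjusted p 0.258). It was also lost under microglial marker scaling, where the difference was -0.17 beside a median of 0.32 over all genes. Against young wild type the aged libraries labelled Trem1-/- were lower by -0.47 ± 0.12 (adjusted p 0.0211). That call was lost without young wild type replicate 1 or aged replicate 2, and by limma without its trend and robust options (adjusted p 0.173). Under microglial marker scaling it was lost too, and the difference was -0.02 beside a median of 0.45 over all genes. On the opposite strand Zfp652 shares 70.14% and Phospho1 41.13% of the exon bases of Abi3. The sources used here do not state whether counting used the strand, so the values of Abi3 are uncertain. Zfp652 had a mean of 6922 ± 401 in young and 5955 ± 279 in aged wild type (SD, n = 3). In the libraries labelled Trem1-/- it had 5957 ± 513 when young and 5789 ± 125 when aged.

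Of 15 other actin and WAVE genes tested, 4 were higher and 0 lower in aged against young wild type, with a median of 0.32 beside -0.01 over all genes. They were the GTPase gene Rac2 (1.02), Cyfip2 of the WAVE complex (2.47), and the Arp complex genes Actr3 (0.57) and Arpc2 (0.49). Rac2, Cyfip2 and Actr3 were also higher in the young libraries labelled Trem1-/- than in young wild type, by 0.73, 1.38 and 0.53.

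Abca7 was at 1020, 1096 and 867 in young wild type and at 1134, 1255 and 1242 in aged wild type, where all values were higher (0.29 ± 0.14, adjusted p 0.226). The young libraries labelled Trem1-/- held 1283, 1239 and 1395, also all higher than young wild type (0.40 ± 0.14, adjusted p 0.169). The aged ones held 1400, 1025 and 1155 and overlapped both. None of these differences passed the test. Of 9 tested relatives in the ABCA family, Abca13, Abca5 and Abca4 rose with age in wild type.

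Of 34 tested genes at other Alzheimer risk loci, 7 were higher and 3 lower in aged against young wild type, with a median of -0.10. By smallest p these included Treml2, Trem2, the lipid carrier gene Apoe and the lysosomal gene Tmem106b. Trem2, the activating partner of the Plcg2 pathway, was lower by -0.57 and Tmem106b by -0.58, while Treml2 was higher by 1.49 and Apoe by 0.80. In the young libraries labelled Trem1-/- against young wild type 2 of 34 were higher, Ms4a4a and Ms4a6c. Both are paralogs of Ms4a6d already given beside it, and not a result from a separate locus. They are also among the 7 that were higher in aged wild type. In aged against young libraries of that label 1 was higher, Apoe by 0.84, and 3 were lower, namely Grn (-0.56), Ctsb (-0.35) and Adam10 (-0.38). Grn and Ctsb encode the lysosomal proteins progranulin and cathepsin B, and Adam10 the alpha-secretase.

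**Figure D4:**
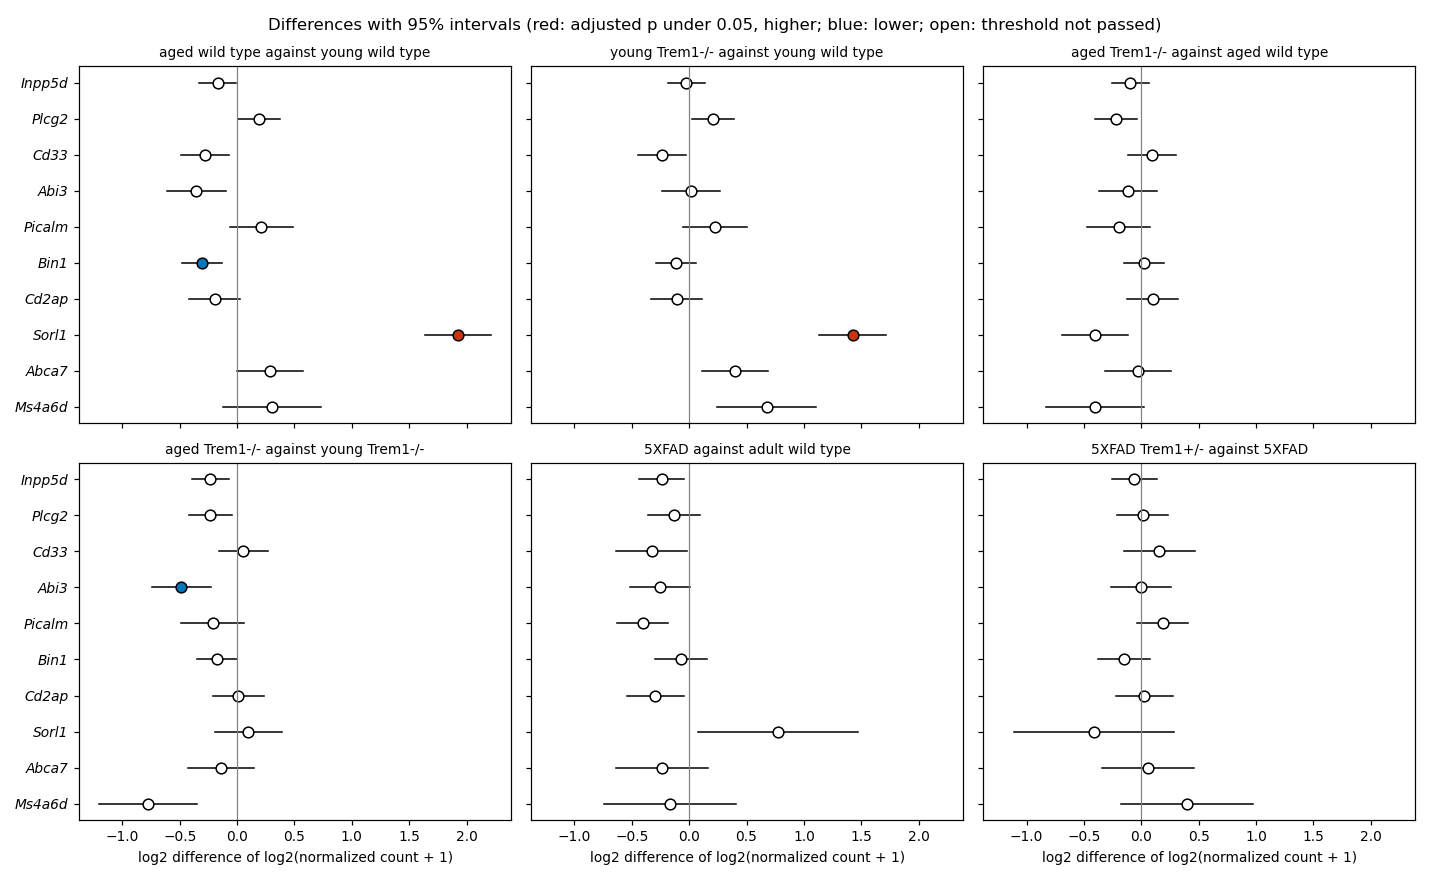
Difference of mean log2(normalized count + 1) for each gene with its 95% interval in 6 comparisons, filled where the adjusted p was under 0.05. Sorl1 is 1.93 and 1.43 higher than young wild type in the first 2 panels, and the other filled points are Bin1 (-0.31) and Abi3 (-0.49). Under microglial marker scaling Bin1 turned to 0.08, beside a median of 0.38 over all genes. Abi3 kept its direction but not its call there, at -0.17 beside a median of 0.32.

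In 5XFAD against adult wild type microglia, which asks how amyloid pathology alters these genes, 0 of the 10 passed the limma test, where 1.98% of the 17025 genes tested were called. At an unadjusted p under 0.05 there were 5 of the 10, Picalm, Cd33, Inpp5d, Cd2ap and Sorl1, beside 2573 of all genes. edgeR called 0 of the 10 and 206 of all genes, and DESeq2 called 1, Picalm, and 778. The differences were below 0 for 9 of the 10 genes, from -0.41 to -0.07, with a median of -0.24 over the 10 beside 0.00 over all genes, and Sorl1 was above 0. The groups were apart for 3 of the 10, against 17.3% of all genes. These were Picalm, Inpp5d and Cd2ap, each lower in 5XFAD, against 8.01% of all genes lower. The summed microglial markers were also lower, at 387103 to 441445 in 5XFAD beside 483239 to 529069 in wild type. Of the other lists of cell type markers, 3 had summed counts wholly above those of wild type. Choroid plexus markers summed to 25529 to 137817 in 5XFAD beside 4314 to 11462 in wild type, and neuronal ones to 253 to 563 beside 90.2 to 129. Astrocyte markers summed to 4146 to 6127 beside 3130 to 4047, with 2 of 7 called higher. The part of these markers in the differences was not tested. Scaled to the microglial markers, the median of all genes was at 0.26 in this comparison, and Bin1, Inpp5d, Plcg2, Abca7 and Ms4a6d turned above 0, at 0.19, 0.02, 0.12, 0.02 and 0.09.

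Picalm was at 17574, 18189 and 18738 in adult wild type and at 13062, 12264 and 16060 in 5XFAD. Every 5XFAD library was below every wild type library, by -0.41 ± 0.11 (adjusted p 0.056). Without 5XFAD replicate 3, the highest of its group, the value was -0.52 and passed, and the adjusted p ran from 0.0154 to 0.183 over the libraries left out. The 5XFAD Trem1+/- libraries held 14275, 15812 and 16830, between the other groups on average and overlapping 5XFAD. In the authors' deposited table, with the sign turned so that a negative value is lower in 5XFAD, Picalm was at -0.397 (SE 0.122, adjusted p 0.0327).

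Cd2ap was at 3298, 4175 and 3616 in wild type, 3111, 3049 and 2843 in 5XFAD and 3014, 3156 and 2986 in 5XFAD Trem1+/-. The wild type libraries were above all 6 others, with differences of -0.30 ± 0.12 (adjusted p 0.242) and -0.27 ± 0.12 (adjusted p 0.262). Bin1 overlapped between wild type at 9188, 8342 and 9929 and 5XFAD at 8006, 9961 and 8221, whereas 5XFAD Trem1+/- at 7650, 8055 and 7746 lay below wild type (-0.22 ± 0.11, adjusted p 0.321).

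Sorl1 was at 2902, 1833 and 1716 in adult wild type, at 2671, 3139 and 5414 in 5XFAD and at 2100, 2827 and 3239 in 5XFAD Trem1+/-. Replicate 3 of 5XFAD stood high and wild type replicate 1 overlapped the 5XFAD range. The difference of 0.77 ± 0.31 between 5XFAD and wild type did not pass (95% interval 0.07 to 1.47, adjusted p 0.283), and it ran from 0.47 to 1.01 with each library left out. In the authors' deposited table with its sign turned it was 0.80 (SE 0.259, adjusted p 0.0486). The same 2 libraries had the highest monocyte sums of their groups, 10817 for 5XFAD replicate 3 and 8391 for wild type replicate 1, whose group was otherwise at 1057 and 2387. In 5XFAD Trem1+/- the library with the most Sorl1, replicate 3, had the lowest monocyte sum, 5939 beside 7100 and 7808. The part of this in the Sorl1 values was not tested.

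Of the signalling genes, Inpp5d was at 19132, 22399 and 19303 in adult wild type, 16673, 16839 and 17919 in 5XFAD and 16339, 17296 and 15717 in 5XFAD Trem1+/-. All 6 libraries with the 5XFAD transgenes lay below all wild type libraries, with differences of -0.24 ± 0.09 (adjusted p 0.225) and -0.30 ± 0.09 (adjusted p 0.0918). Abi3 was at 3973, 4634 and 4364 in wild type, 4009, 3010 and 3891 in 5XFAD and 3452, 3624 and 3734 in 5XFAD Trem1+/-, the last wholly below wild type (-0.26 ± 0.13, adjusted p 0.317). Cd33 was at 10156, 10091 and 8619 in wild type and 8498, 8956 and 5883 in 5XFAD, which overlapped (-0.33 ± 0.15, adjusted p 0.302). Plcg2 at 5928 to 7863, Abca7 at 648 to 1181 and Ms4a6d at 314 to 779 overlapped between all 3 groups.

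In 5XFAD Trem1+/- against 5XFAD microglia, which asks whether loss of 1 Trem1 copy alters them under amyloid, 0 of the 10 genes passed, and the groups overlapped for all 10, whereas they were apart for 11.9% of all genes. No gene of all those tested passed limma (0% called), 883 had an unadjusted p under 0.05 of which 0 were among the 10, edgeR called 0 and DESeq2 called 12. The 95% intervals bound the differences of Inpp5d within -0.26 and 0.14 and of Plcg2 within -0.21 and 0.24, whereas those of Sorl1 (-1.11 to 0.29) and Ms4a6d (-0.17 to 0.98) were wide. Trem1 itself was at 13.7, 32.0 and 36.8 in 5XFAD and at 25.1, 18.1 and 38.3 in 5XFAD Trem1+/-, which overlap. The summed microglial markers were at 462668 to 518010 in 5XFAD Trem1+/-, wholly above 387103 to 441445 in 5XFAD. All 12 of these markers had differences above 0, and 0 of them were called. In 5XFAD Trem1+/- against adult wild type 0 of the 10 passed, where 2.78% of all genes were called. At an unadjusted p under 0.05 there were 2, Inpp5d and Cd2ap, beside 2707 of all genes. edgeR called 0 of the 10 and 400 of all genes, and DESeq2 called 1, Inpp5d, and 1061. The groups were apart for 5 of the 10, all lower, against 25.5% of all genes and 12.6% lower. Choroid plexus markers summed to 33267 to 174897 in 5XFAD Trem1+/- beside 4314 to 11462 in adult wild type, and neuronal ones to 146 to 222 beside 90.2 to 129. The microglial sums of these groups overlapped. The part of the markers in either comparison with 5XFAD Trem1+/- was not tested.

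**Figure D5:**
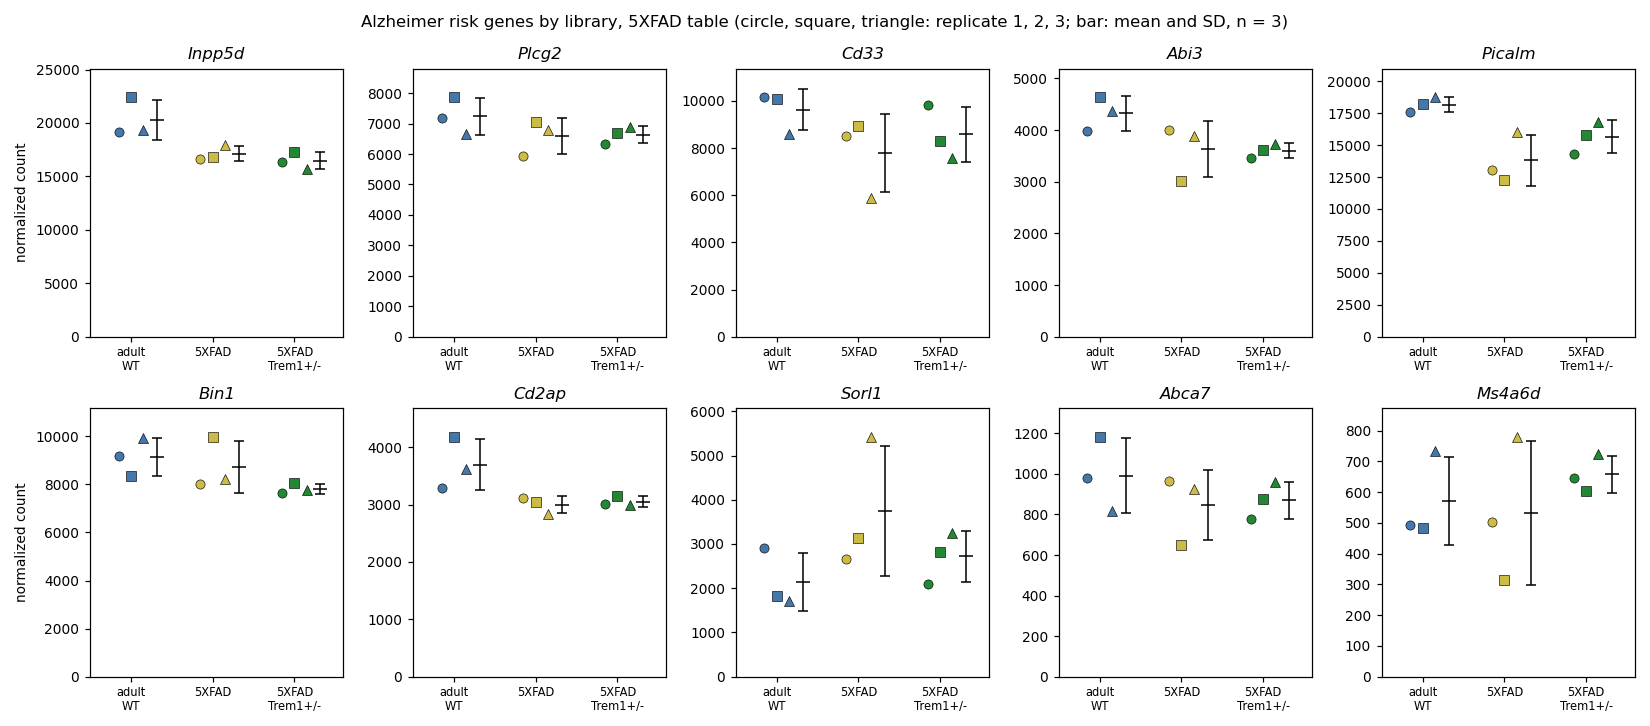
Normalized counts of the 10 genes in the 9 libraries of the 5XFAD table, 1 panel a gene from 0 upwards, with symbols for replicates and the group mean with SD (n = 3). Picalm, Inpp5d and Cd2ap lie lower in all 5XFAD libraries than in wild type, and Sorl1 spreads from 2671 to 5414 in 5XFAD.

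Among the other risk loci, 2 were higher and 1 lower of 34 in 5XFAD against wild type. Apoe was higher by 3.22 and Ctsb by 0.78, and Cass4, a scaffold of focal adhesions, was lower by -1.01. Of the ITAM and ITIM list 2 of 24 were higher, the adaptor genes Fcer1g (0.84) and Tyrobp (0.75), the latter encoding the partner of TREM2. The 29 trafficking genes tested had a median of -0.05. Of the 15 actin and WAVE genes 1 was higher, Nckap1.

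Across libraries, the members varied in different ways. The ratio of the highest to the lowest group mean in the aging table was 3.84 for Sorl1 and 1.72 for Ms4a6d, and 1.14 (Cd2ap) to 1.40 (Abi3) for the other 8. In the 5XFAD table it was 1.74 for Sorl1 and 1.10 (Plcg2) to 1.32 (Picalm) for the others. Inpp5d and Abi3 had a Pearson's r of log2 levels of 0.883 over the 12 aging libraries and 0.730 over the 9 others. Plcg2 and Ms4a6d had 0.910 over the aging libraries and -0.279 over the 5XFAD table. These pairs had the highest values of all pairs of members over the aging libraries. The lowest there was Bin1 with Sorl1, at -0.785, and at -0.174 over the 5XFAD table. The highest over the 5XFAD table was Inpp5d with Cd2ap, at 0.880, and at 0.428 over the aging libraries. All are descriptions over libraries that share groups.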

How the data were processed

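RNA of primary mouse brain microglia was sequenced in 21 libraries, 3 in each of 7 groups, from RNeasy mini plus extracts and NEBNext Ultra libraries, per the labels' protocols. Per the submitters' processing notes, the tools were fastp, HISAT2 2.0.5, featureCounts 1.5.0-p3 and DESeq2 1.20.0 with GRCm38. The annotation release and strandedness were not given in the sources used here. The deposited library columns hold a signal: read counts already scaled by size factors, separately for each table. Undoing that scaling returned whole reads, to a tolerance of 0.05 read, in 99.9956% or more of the nonzero values, which supplied the depths and the input of the count tests. Other deposited columns hold the authors' own results: a log2 fold change, the error of it, a test score and raw and adjusted p-values, for young wild type against aged Trem1-/- and for adult wild type against 5XFAD. A positive deposited fold is higher in wild type, so signs were turned here. A column of marked genes was not used.

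Log2(normalized count + 1) was tested with limma 3.58.1 in R 4.3.3, using its trend and robust options, in a single fit a table over all its groups without covariates. The 16086 and 17025 genes that averaged 10 or more normalized counts were tested, with Benjamini-Hochberg adjustment over all of them and a threshold of 0.05. A difference on this scale understates the change of low genes. The script was tested on simulated data. Alternatives were pseudocounts of 0.5 and 5, no filter or a mean of at least 50, limma without trend and robust, a fit of only the groups compared, TMM scaling, a replicate block, edgeR 4.0.16 and DESeq2 1.42.0 on recovered reads, and each library left out. Scaling to microglial markers was added after seeing the data. At the depths given, 3 reads correspond to 2.06 to 4.51 normalized counts (aging table) or 2.26 to 4.36 (5XFAD table), and counting error is small for the 10 genes, whose lowest library held 216 reads.

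Exon lengths, positions and overlaps came from GENCODE M21 (GRCm38), with 53644 of 54532 symbols matched to 1 gene. The 10 genes and the 20 other lists were chosen with earlier results of these data known. The 10 genes were always named, with at most 4 called genes of each other list by smallest p, the 3 genes most alike to each, and Trem1. The paralogs of Ms4a6d and the overlapping genes were named after their values were seen.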

Additional observations from a re-analysis of the deposited data

Results flagged for a closer look

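In 2 of the 10 genes the age difference itself differed between the labelled genotypes by the limma interaction test. For Sorl1 the age effect in libraries labelled Trem1-/- minus that in wild type was -1.829 on the log2 scale, where Sorl1 rose with age in wild type and differed by 0.10 under the other label. For Ms4a6d the same difference was -1.080, with an age difference of 0.30 in wild type and -0.78 under the other label, neither of which passed the test alone. That call was lost with 10 of the 12 libraries left out in turn. Trem1 did not follow the labels in these libraries, and the monocyte marker sums differed between the same groups.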

How the results depend on the processing

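The counts of called genes among the 10 moved by more than 1.5 times as follows. In aged against young wild type (2 called), limma without trend and robust and the fit of only the groups compared gave 1, and microglial marker scaling gave 5. In young libraries labelled Trem1-/- against young wild type (1), the fit of only the groups compared and the replicate block gave 2, and microglial marker scaling gave 3. In aged against young libraries of that label (1), a pseudocount of 5, no filter, only the groups compared, TMM scaling, the replicate block and DESeq2 gave 2, while limma without trend and robust, edgeR and microglial marker scaling gave 0. In aged libraries of that label against young wild type (4), limma without trend and robust gave 1 and edgeR gave 2. In the interaction (2), the count was 1 with a pseudocount of 0.5 and 0 by limma without trend and robust. In 5XFAD against wild type (0), a pseudocount of 5, only the groups compared, the replicate block and DESeq2 gave 1, and no filter gave 3. In 5XFAD Trem1+/- against wild type (0), no filter and DESeq2 gave 1. Leaving out 1 library at a time gave 1 to 5 in aged against young wild type, 0 to 0 in aged against young libraries labelled Trem1-/-, 1 to 3 in aged libraries of that label against young wild type, 1 to 4 in the interaction and 0 to 1 in 5XFAD against wild type. The cause of these changes was not tested, except that an arm with 1 library left out rests on fewer samples.

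Of the 90 differences of single genes, 30 changed sign under microglial marker scaling, including uncalled ones, and none of these was of Sorl1. The values called in the main test or under that scaling that changed sign were these. Bin1 was at 0.082 in aged against young wild type. In aged libraries labelled Trem1-/- against young wild type Bin1 was at 0.160, Inpp5d at 0.183, Plcg2 at 0.419 and Cd2ap at 0.348. Other settings and left-out libraries changed the sign of uncalled values, the largest of which was Ms4a6d in 5XFAD against wild type, from -0.171 to 0.159 without 5XFAD replicate 2. Microglial marker scaling moved the median of all genes by more than 0.1, to 0.38 in aged against young wild type, 0.12 in young Trem1-/- against young wild type, 0.32 in aged against young Trem1-/-, 0.45 in aged Trem1-/- against young wild type, 0.26 in 5XFAD against wild type and -0.20 in 5XFAD Trem1+/- against 5XFAD. It called 3846 genes higher and 37 lower in aged against young wild type, beside 1034 and 360 in the main test, and 734 and 7 in 5XFAD against wild type, beside 275 and 62. Relative to those medians Bin1 remained lower. Over all genes, which set the background shares, calls with all libraries ran from 581 (limma without trend and robust, which gave the lowest count in each comparison with calls) to 3883 (microglial marker scaling) in aged against young wild type beside 1394. They ran from 97 to 649 (only the groups compared) in young Trem1-/- against young wild type beside 415, 12 to 1013 (microglial marker scaling) in aged against young Trem1-/- beside 275, and 369 to 4027 (the same scaling) in aged Trem1-/- against young wild type beside 1073. The interaction had 5 to 769 (DESeq2), and 787 without aged wild type replicate 2, beside 408, 5XFAD against wild type 32 to 795 (no filter) beside 337, and 5XFAD Trem1+/- against wild type 27 to 1061 (DESeq2) beside 473. The contrasts with 0 calls reached 23 (DESeq2) in aged Trem1-/- against aged wild type and 29 (no filter) in 5XFAD Trem1+/- against 5XFAD.

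Same-numbered libraries had residual correlations of -0.136 to 0.099 in 18 pairs of the aging table and -0.033 to 0.203 in 9 pairs of the 5XFAD table. Libraries of different numbers were not correlated for reference, so whether replicate numbers pair the libraries was not settled. Over all genes the replicate block called 628 beside 337 in 5XFAD against wild type. It called 848 beside 473 in 5XFAD Trem1+/- against wild type, and 557 beside 408 in the interaction. With the replicate block, Ms4a6d was also called in young Trem1-/- against young wild type (0.68, adjusted p 0.0499) and in aged against young Trem1-/- (-0.78, adjusted p 0.0281), Plcg2 in the interaction (-0.43, adjusted p 0.0465), and Picalm in 5XFAD against wild type (-0.41, adjusted p 0.0137).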
